A study of Lactuca sativa with 32 samples.

Results

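Leaves of lettuce grown behind an FTAZ:PCBM filter were compared with leaves of lettuce grown behind a PTB7-Th:IEICO-4F filter, both in the experiment in which light intensity was adjusted. The members were chosen by sample title alone and comprised 4 plants behind each filter, 8 of the 32 samples of the series. All plants were red oak leaf lettuce (Lactuca sativa), and all samples were polyadenylated leaf RNA. Light came from ceramic metal halide and incandescent lamps through one semi-transparent organic photovoltaic filter or through clear glass. In the PAR controlled (PC) experiment the amount of photosynthetically active radiation (PAR) was adjusted, and in the height controlled (HC) experiment it was not. Another blend, FTAZ:IT-M, completed the series of 8 groups with 4 plants each. Plants were grown 16 to a box, and 8 of these were kept until the final harvest at 5 weeks. The labels do not say whether the 4 plants of a group shared a box, so filter and box cannot be told apart. The transmitted spectra and light intensities are not given in the sources used here.

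An organic photovoltaic filter carries the light-absorbing blend of a solar cell, a donor polymer mixed with an acceptor. FTAZ is a polymer that absorbs visible light, and PCBM is a fullerene acceptor. PTB7-Th absorbs further into the red, and IEICO-4F is an acceptor made without fullerene that absorbs in the near infrared. Plants read the colour of light through photoreceptors, with phytochromes sensing red and far-red light and cryptochromes and phototropins sensing blue. These receptors adjust leaf growth, pigment synthesis and the expression of photosynthesis genes.

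More genes were higher behind FTAZ:PCBM than behind PTB7-Th:IEICO-4F, by mostly small amounts, and those that were higher came largely from long genes while those that were lower came from short genes. With edgeR's quasi-likelihood test, 5746 of 24483 tested genes differed at a Benjamini-Hochberg adjusted p under 0.05, which is 23.5% of the genes tested. Of these, 3424 (14.0%) rose behind FTAZ:PCBM and 2322 (9.48%) fell, relative to PTB7-Th:IEICO-4F. Called genes differed by a median of 0.41 on the log2 scale, in absolute terms. A change under 0.5 on the log2 scale was seen for 3707 of them (64.5%), and 516 changed by at least 1, of which 342 were higher and 174 lower. The CPM ranges (counts scaled to 1e+06 per library) of both groups did not overlap in 6139 genes (25.1% of those tested), of which 3492 (14.3%) were higher and 2647 (10.8%) lower. In whole leaf, a change of RNA per cell and a change in the mix of cell types cannot be told apart.

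The FTAZ:PCBM libraries rose with gene length more than the PTB7-Th:IEICO-4F libraries did, clearly in plants 1 to 3 and weakly in plant 4. The slope of log2 CPM, centred per gene over all 32 plants, on exonic length was 0.171, 0.142, 0.108 and 0.0370 per doubling of length in FTAZ:PCBM plants 1 to 4. It was -0.0517, 0.0189, -0.0445 and -0.0185 in PTB7-Th:IEICO-4F plants 1 to 4. All 4 FTAZ:PCBM slopes lay above all 4 slopes of the other filter, with plant 4 closest to them. Plants 1 to 3 lay above every library outside their group. Plant 4 lay below PC FTAZ:IT-M plant 1 (0.0559), HC PTB7-Th:IEICO-4F plant 4 (0.0506) and HC glass plants 1 and 2 (0.0384 and 0.0463). The group means were 0.114 ± 0.0578 and -0.0240 ± 0.0320 (SD, n = 4 each), a difference of 0.138 with a two-sided exact permutation p of 0.0286, the smallest that 4 against 4 plants can give. The dependence on length was known from earlier results of these libraries before this test, so the p describes it and is not independent evidence. PC glass had a mean slope of -0.0252 ± 0.0453 (SD, n = 4). In the HC experiment the same contrast gave means of -0.0309 ± 0.0268 behind FTAZ:PCBM and -0.0133 ± 0.0509 behind PTB7-Th:IEICO-4F, with an exact permutation p of 0.571. Sequencing depth did not separate the groups, with 48288706 to 48554534 counts per FTAZ:PCBM library and 47895842 to 48678227 per PTB7-Th:IEICO-4F library. The headers of FTAZ:PCBM libraries 2 and 3, and of no other library in the series, carry the letter b in the name of the read file. The labels do not say what it stands for. Of the libraries without the letter, library 1 had the highest slope of the group and library 4 the lowest, and libraries 2 and 3 with it lay between.

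**Figure D1:**
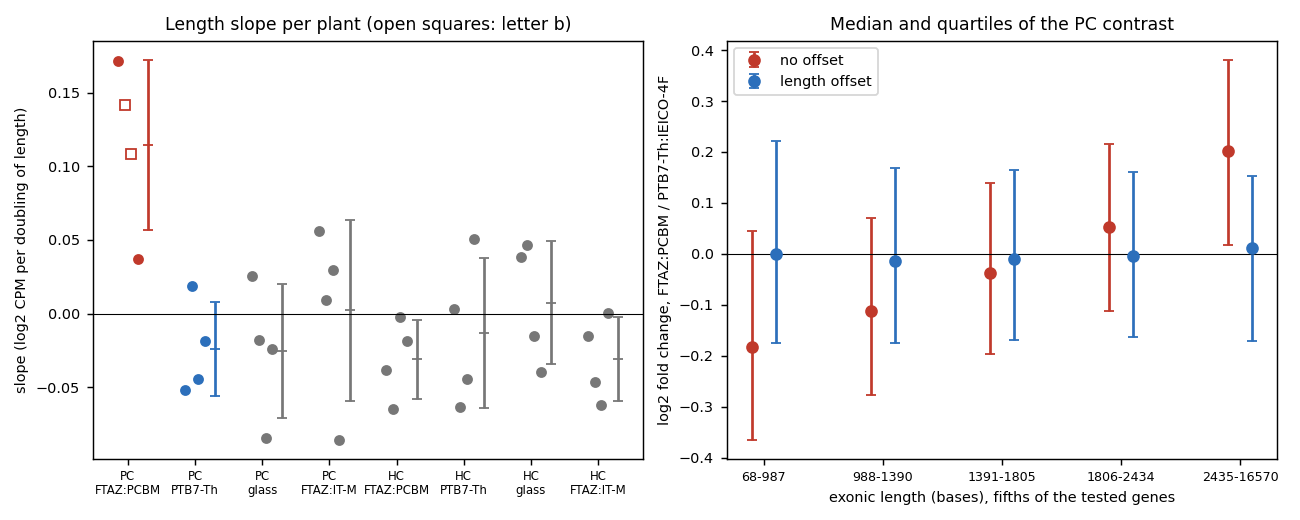
The left panel plots the slope of log2 CPM on exonic length (log2 CPM per doubling of length) for each of the 32 plants by group, with mean and SD beside the points and open squares for the 2 libraries with the letter b. The FTAZ:PCBM plants of the PC experiment lie between 0.0370 and 0.171. The right panel plots the median and quartiles of the log2 fold change, FTAZ:PCBM over PTB7-Th:IEICO-4F, in 5 length classes of about equal numbers of tested genes, without an offset (red) and with a per-library offset on gene length (blue).

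The tested genes were divided into 5 classes of about equal number by exonic length to show the size of this dependence. Among the shortest class, 68 to 987 bases, 171 genes were higher and 937 lower, with a median log2 fold change of -0.18. Among the longest class, 2435 to 16570 bases, 1814 were higher and 58 lower, with a median of 0.20. The median length was 2512 bases for genes that rose and 1092 for genes that fell, beside 1597 for all tested genes. The same contrast was therefore also fitted with a per-library offset that removes the smooth trend on length. That fit called 3256 genes (13.3%), 2087 higher (8.52%) and 1169 lower (4.77%), with median lengths of 1741 and 1699 bases. In the shortest class it called 315 genes higher and 193 lower, and in the longest 524 and 304. Both fits called 2677 genes in the same direction, 1810 higher and 867 lower, which is 46.6% of the genes called without the offset. Of the others, 1613 higher and 1455 lower genes were not called with the offset, and 1 gene turned from higher to lower. Which of the length dependence is of technical and which of biological origin was not tested.

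The number of calls rested in part on the libraries with the letter b. Without FTAZ:PCBM plants 2 and 3, which carry it, 1637 genes were called, 1223 higher and 414 lower, so that 74.7% were higher against 59.6% with all plants. With the offset as well, 469 were called, 384 higher and 85 lower. Without plants 1 and 4, which lack it, 4674 were called, or 2540 with the offset. Both settings leave 2 plants in that group. Leaving out a single plant gave 3746 to 5829 calls, the fewest without FTAZ:PCBM plant 2.

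**Figure D2:**
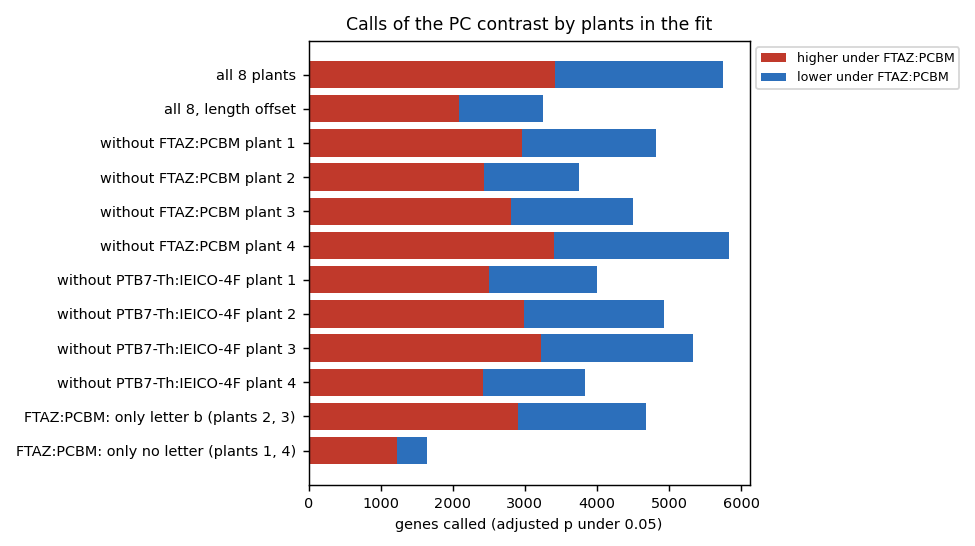
Number of genes called higher (red) and lower (blue) behind FTAZ:PCBM in the PC experiment (edgeR quasi-likelihood test, adjusted p under 0.05), for all 8 plants, with the offset on gene length, and with plants left out. The count falls from 5746 to 3256 with the offset and to 1637 without the libraries that carry the letter b.

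The genes named here were called in both fits, had CPM ranges that did not overlap and a mean of at least 1 CPM over the 8 plants. Among the 1490 higher and 727 lower genes that met this rule, the 10 with the greatest absolute log2 fold change in each direction were taken. Their values describe the choice, since the rule used them. The files give no product names for these genes, so no role is stated, and none of the 20 overlaps another gene. Positions are on the Lsat_Salinas_v7 assembly.

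LOC111886104 lies at NW_019680648.1:2128869-2130909 on the plus strand and has 3 exons. It reached 0.569, 0.763, 4.71 and 2.19 CPM in FTAZ:PCBM plants 1 to 4, and 0.0389, 0.0989, 0.435 and 0.430 CPM in PTB7-Th:IEICO-4F plants 1 to 4. The groups did not overlap, but plants 1 and 2 behind FTAZ:PCBM were close to plants 3 and 4 behind the other filter, and the latter group rested on 2 to 22 counts per library. Its log2 fold change was 3.02 ± 0.63 (SE, edgeR adjusted p = 0.0012), and 2.21 without FTAZ:PCBM plant 3, still called. PC glass had 0.0779 ± 0.0820 CPM (SD, n = 4), so FTAZ:PCBM stood above glass by 4.70 on the log2 scale (edgeR adjusted p = 0.000188). The glass libraries held 0 to 9 counts of this gene, so the size of that difference is uncertain.

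LOC111899681, a gene of 1 exon at NW_019673320.1:5696293-5697066 on the plus strand, had 0.813, 3.45, 3.33 and 2.23 CPM behind FTAZ:PCBM. Behind PTB7-Th:IEICO-4F it had 0.292, 0.356, 0.494 and 0.117 CPM. Plant 1 was the lowest of the FTAZ:PCBM plants and the only one under 1 CPM. The log2 fold change was 2.95 ± 0.79 (SE, edgeR adjusted p = 0.00788). Without the libraries with the letter b it was 2.26 and no longer passed (edgeR adjusted p = 0.146).

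LOC111884267, at NW_019680221.1:2074862-2077535 on the minus strand with 2 exons, had 65.7, 117, 49.5 and 61.3 CPM behind FTAZ:PCBM and 7.51, 11.7, 20.6 and 6.78 CPM behind PTB7-Th:IEICO-4F. The lowest FTAZ:PCBM plant was above the highest plant of the other filter by a wide margin. Its log2 fold change was 2.66 ± 0.45 (SE, edgeR adjusted p = 0.000268). Glass stood between at 42.2 ± 13.6 CPM (SD, n = 4), and the call against glass was passed behind PTB7-Th:IEICO-4F (log2 fold change -1.86, edgeR adjusted p = 0.0178) and not behind FTAZ:PCBM (0.80, adjusted p = 0.208).

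LOC111890999, at NW_019672709.1:4086350-4089117 on the minus strand with 3 exons, had 2.56, 2.75, 5.93 and 4.91 CPM behind FTAZ:PCBM. It had 0.642, 0.692, 1.13 and 0.527 CPM behind PTB7-Th:IEICO-4F, and 4.22 ± 2.52 CPM (SD, n = 4) behind glass. FTAZ:PCBM and glass plants were at a like level and the PTB7-Th:IEICO-4F plants were below both. The log2 fold change between the filters was 2.43 ± 0.50 (SE, edgeR adjusted p = 0.0012).

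The other 6 higher genes were LOC111921236, LOC111912962, LOC111920498, LOC111897792, LOC111885663 and LOC111899294, with log2 fold changes of 2.11 to 2.31 and edgeR adjusted p of 0.00029 to 0.0327. Without PTB7-Th:IEICO-4F plant 3 the log2 fold change was 2.84 for LOC111920498 and 2.79 for LOC111899294. LOC111920498 lost its call in 7 of 22 other fits, among them those without FTAZ:PCBM plant 2 or PTB7-Th:IEICO-4F plant 1, 2 or 4. Without the libraries with the letter b, LOC111921236, LOC111920498, LOC111885663 and LOC111899294 stood at 1.70, 1.85, 1.84 and 1.89. These were no longer called (edgeR adjusted p = 0.101, 0.197, 0.0840 and 0.0714), while LOC111912962 and LOC111897792 stayed called. Against PC glass, 1 of the 10 higher genes, LOC111886104, was called higher behind FTAZ:PCBM, where 9.31% of all genes were called higher. Behind PTB7-Th:IEICO-4F 7 of the 10 were called lower than glass, where 2.46% of all genes were. These comparisons share the glass plants, and they use the same filter plants whose gap chose the 10 genes, so the shares of all genes are not like-for-like and nothing is read from them. Within groups the 10 genes ordered the plants alike: behind PTB7-Th:IEICO-4F plant 3 was the highest in all 10 and plant 4 the lowest in 9, and behind FTAZ:PCBM plant 2 was the highest in 8.

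Of the genes that fell, LOC111902421 had the greatest change. It lies at NW_019673832.1:2974394-2975685 on the minus strand with 3 exons, and had 1.69, 0.983, 1.21 and 2.21 CPM behind FTAZ:PCBM against 11.9, 10.4, 4.01 and 11.3 CPM behind PTB7-Th:IEICO-4F. Plant 3 behind PTB7-Th:IEICO-4F was well below the other plants of its group and still above all FTAZ:PCBM plants. The log2 fold change was -2.62 ± 0.60 (SE, edgeR adjusted p = 0.00261), and -2.27 without the libraries with the letter b (adjusted p = 0.0764).

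LOC111893952, at NW_019682572.1:59434-60773 on the plus strand with 2 exons, had 0.610, 0.321, 0.796 and 1.32 CPM behind FTAZ:PCBM and 3.02, 4.53, 3.30 and 4.14 CPM behind PTB7-Th:IEICO-4F. Every plant of the second group was above every plant of the first. Its log2 fold change was -2.30 ± 0.54 (SE, edgeR adjusted p = 0.00345), and -1.95 without the libraries with the letter b (adjusted p = 0.0835).

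LOC111911569, at NW_019676070.1:116012-117831 on the minus strand with 2 exons, had 0.650, 0.823, 0.502 and 0.557 CPM behind FTAZ:PCBM and 4.87, 1.17, 1.92 and 2.77 CPM behind PTB7-Th:IEICO-4F. The FTAZ:PCBM plants were alike, while plant 1 of the other filter was far above its plant 2. The log2 fold change was -2.08 ± 0.57 (SE, edgeR adjusted p = 0.00999). It was -1.62 without PTB7-Th:IEICO-4F plant 1 (adjusted p = 0.0576) and -2.15 without the libraries with the letter b (adjusted p = 0.0899). Glass, at 2.41 ± 0.953 CPM (SD, n = 4), was at the level of PTB7-Th:IEICO-4F.

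LOC111877605, a gene of 1 exon at NW_019678689.1:1523853-1524656 on the plus strand, had 0.833, 1.36, 0.482 and 1.53 CPM behind FTAZ:PCBM and 4.52, 4.08, 2.39 and 5.94 CPM behind PTB7-Th:IEICO-4F. Plant 3 was the lowest in both groups, and the groups did not overlap. The log2 fold change was -2.0 ± 0.46 (SE, edgeR adjusted p = 0.00259), and -1.84 without the libraries with the letter b (adjusted p = 0.0542).

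The other 6 lower genes were LOC111892747, a long noncoding RNA gene, and LOC111916665, LOC111881934, LOC111877885, LOC111912993 and LOC111909907, with log2 fold changes of -1.94 to -1.66 and edgeR adjusted p of 0.00409 to 0.0184. With only the FTAZ:PCBM libraries that carry the letter b, the log2 fold change was -2.76 for LOC111892747, -2.81 for LOC111916665 and -2.46 for LOC111877885. Without those libraries it was -1.42, -1.23 and -1.24, and none of these was called (edgeR adjusted p = 0.181, 0.153 and 0.200). Against PC glass, LOC111911569, LOC111912993 and LOC111909907, 3 of the 10 lower genes, were called lower behind FTAZ:PCBM, where 6.40% of all genes were. None of the 10 was called higher than glass behind PTB7-Th:IEICO-4F, where 0.886% of all genes were. The same limits hold for these counts. Without the libraries with the letter b, 14 of the 20 named genes were no longer called, and none changed direction.

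**Figure D3:**
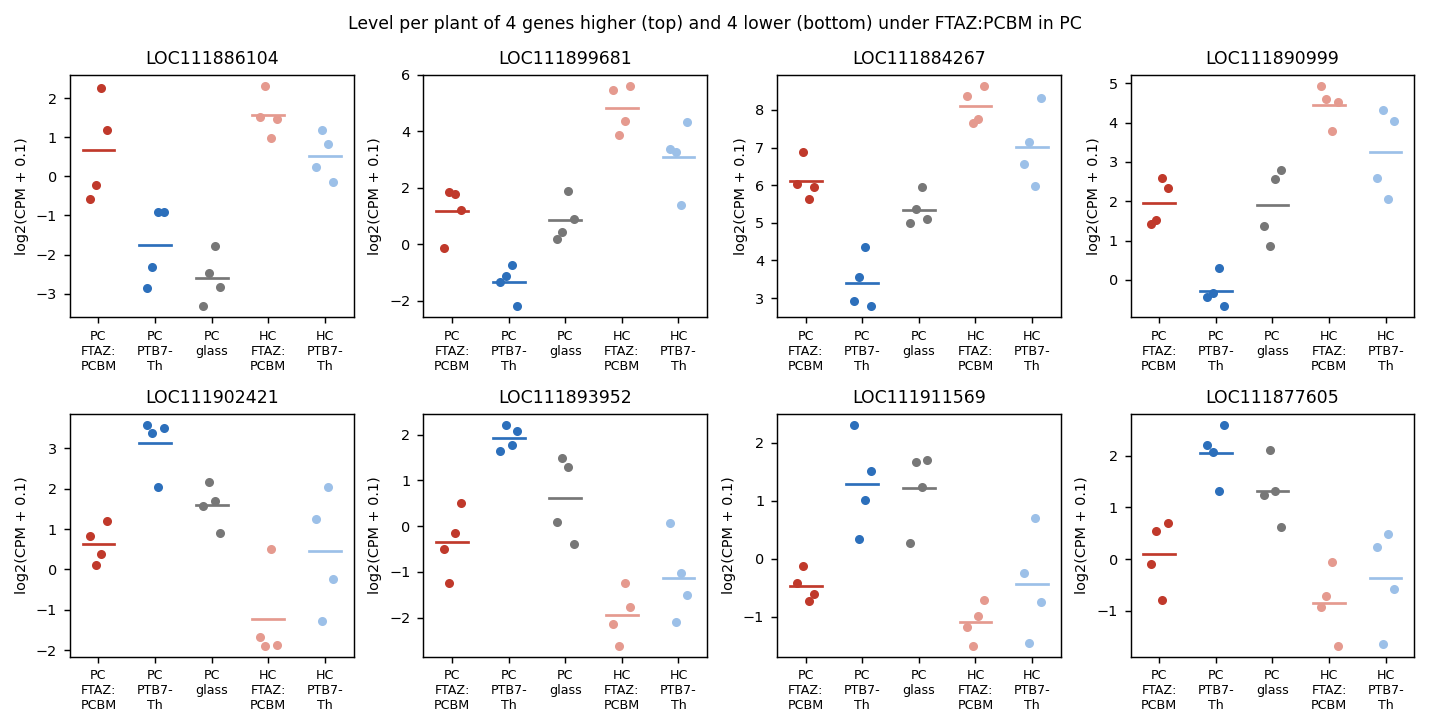
Level of the first 4 higher genes (top) and the first 4 lower genes (bottom) in each plant, as log2(CPM + 0.1), with a line at the mean of each group of 4 plants, for both filters and glass in the PC experiment and both filters in the HC experiment. The red and dark blue points of the PC filters do not overlap in any of the 8 genes. In the top row the HC means lie above the PC means of the same filter, and in the bottom row below them.

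The 2677 genes called in both fits tended to have PC glass between the filters. The glass mean lay between the filter means for 1441 of the 1810 higher genes and for 758 of the 867 lower genes, 82.1% together, beside 44.0% of all tested genes. Glass was above both filters for 161 of the higher and 75 of the lower genes, and below both for 208 and 34. It was nearer to FTAZ:PCBM for 45.9% of the higher and 34.7% of the lower genes. Genes chosen for a wide gap between the filters have more room for glass within it, so the 44.0% of all genes is not a like-for-like measure.

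About 50% of the genes that separated the filters in the PC experiment also separated the experiments behind glass, in the matching direction. The HC and PC glass plants used for this are not among the groups of the filter contrast. They do enter the filter on low counts and the shared estimate of spread, so both sets of calls are not fully independent. Behind glass, 7890 genes (32.2%) differed between HC and PC, 3953 (16.1%) higher in HC and 3937 (16.1%) lower. Of the 3424 genes higher behind FTAZ:PCBM, 1684 (49.2%) were higher in HC glass and 50 (1.46%) were lower, and these 1684 make up 42.6% of the genes higher in HC glass. Of the 2322 genes lower behind FTAZ:PCBM, 1170 (50.4%) were lower in HC glass and 18 (0.775%) were higher, the 1170 being 29.7% of the genes lower in HC glass. The median HC over PC log2 fold change behind glass was 0.25 for the higher genes, -0.28 for the lower genes and 0.00 for all tested genes. With the offset on gene length the shares were 59.4% of 2087 higher genes and 56.7% of 1169 lower genes, where 16.4% of all genes were higher and 16.7% lower in HC glass. With the glass calls held as reported, and the filter contrast refitted in 21 other ways, including those without the libraries with the letter b but not the limit of at least 1 on the log2 scale, they ranged from 46.4% to 69.7% and from 45.7% to 57.1%. The named genes showed the same order: for all 10 higher genes HC glass was above PC glass, 9 of them called with log2 fold changes of 1.18 to 5.14 over the 10, and for all 10 lower genes it was below, 8 of them called with -5.24 to -0.89 over the 10. Light intensity goes with the experiment. The labels do not say which plants shared a growing date or a box, so any part of these in the difference cannot be told apart from light.

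With all plants in the fit, the same filters in the HC experiment separated fewer genes, by a margin that depended on length handling and on 2 libraries. With the offset on gene length the counts were 3256 in PC and 2464 in HC. Without the libraries with the letter b, all of them PC FTAZ:PCBM, the PC count was 1637, or 469 with the offset. Both are under the HC counts with all plants. They rest on 2 FTAZ:PCBM plants where HC has 4, so these counts are not like for like. Without the offset, 2013 genes (8.22%) differed in HC between FTAZ:PCBM and PTB7-Th:IEICO-4F by the same test, 857 higher (3.50%) and 1156 lower (4.72%). Of the 3424 genes higher in PC, 235 (6.86%) were also higher in HC and 63 (1.84%) were lower. Of the 2322 lower in PC, 227 (9.78%) were also lower in HC and 30 (1.29%) were higher. The shared genes were 27.4% of those higher and 19.6% of those lower in HC. Across all 24483 genes the log2 fold changes of both experiments had a Pearson r of 0.25 and a Spearman rho of 0.21, given as a description since genes are not independent replicates. Of the named genes, 8 of 10 higher and 10 of 10 lower had the same sign in HC, but the HC difference was called for LOC111912993 alone, at -1.80 (edgeR adjusted p = 0.0104). Plants within a group varied more in the HC PTB7-Th:IEICO-4F group, with an edgeR common dispersion (squared coefficient of variation between plants) of 0.0410, than in the other 3 filter groups at 0.0186 to 0.0264.

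The difference of the contrast between experiments was tested as an interaction and was called for 2813 genes (11.5%), 1806 (7.38%) with a more positive FTAZ:PCBM over PTB7-Th:IEICO-4F value in PC and 1007 (4.11%) with a more negative one. With the offset on length it was called for 1472 (6.01%), and without the libraries with the letter b for 874. Among the named genes it was called for LOC111912962, LOC111897792 and LOC111899294, by 2.00, 2.01 and 2.27 on the log2 scale (edgeR adjusted p = 0.0312, 0.0117 and 0.0352). For the other 17 the contrast was not shown to differ between experiments.

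**Figure D4:**
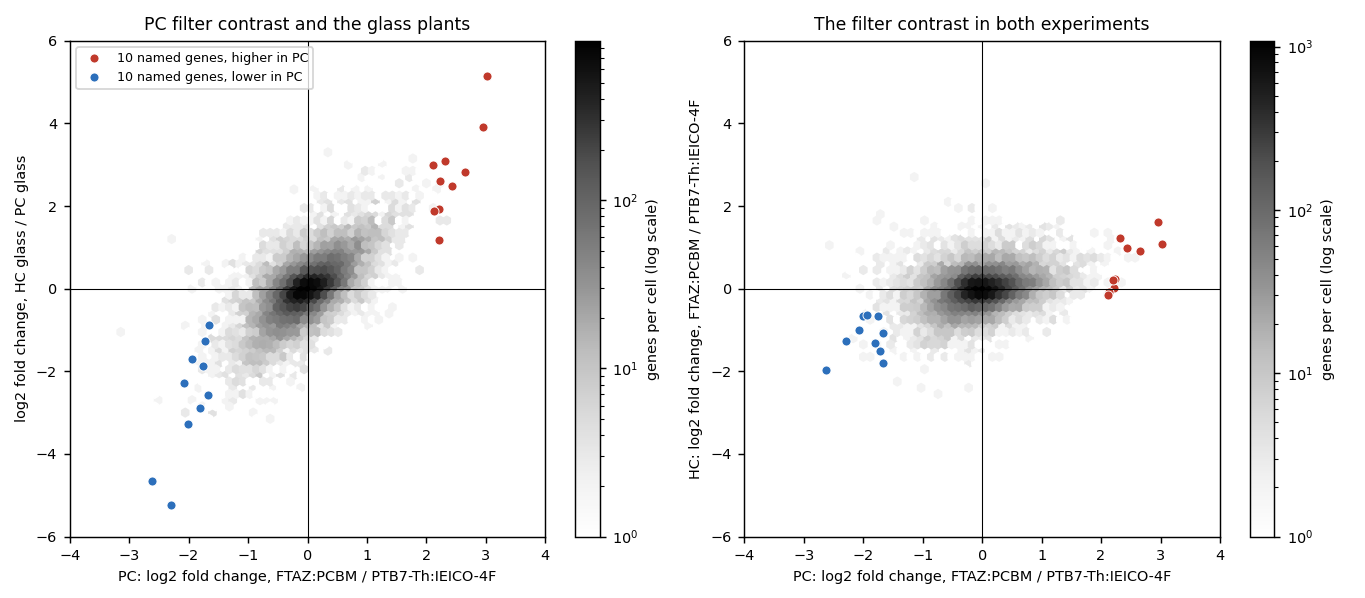
Log2 fold change of FTAZ:PCBM over PTB7-Th:IEICO-4F in the PC experiment (x axis of both panels) against HC glass over PC glass (left) and against the same filter contrast in the HC experiment (right). Grey shade gives the number of genes per hexagon on a log scale, and red and blue points are the 10 higher and 10 lower named genes. On the left the cloud is tilted, with all 10 red points above 1 and the blue points below 0, and on the right it lies closer to the horizontal.

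Classes of genes were set against the background of all tested genes. Long noncoding RNA genes, whose transcripts carry no long reading frame, had few higher calls behind FTAZ:PCBM and about the background share of lower calls. Of 1698 tested, 46 (2.71%) were higher, beside 14.0% of all tested genes, and 159 (9.36%) lower, beside 9.48%. Their median log2 fold change was -0.15. With the offset on length, 33 (1.94%) were higher and 101 (5.95%) lower, beside 8.52% and 4.77% of all genes, with a median of -0.10. In the shortest length class 11.8% of them were lower without the offset, beside 22.3% of the protein-coding genes in that class. Among the 284 in the longest length class, 16 (5.63%) were higher and 9 (3.17%) lower without the offset, and 2 higher and 39 lower with it. Protein-coding genes of that class had 39.7% higher and 1.07% lower without the offset, and 517 higher and 259 lower of 4488 with it. Beside these, the long noncoding RNA genes had a smaller share of higher and a larger share of lower calls in both fits. Their median log2 fold change in that class was 0.01 without the offset and -0.17 with it, beside 0.21 and 0.02 for protein-coding genes. Both fits use the same counts, so the second is not separate evidence. The classes were not matched for level, and of genes under 1 CPM per kilobase 5.10% were higher and 2.26% lower without the offset. Without the libraries with the letter b, 8 long noncoding RNA genes were higher and 27 lower, or 1 and 7 with the offset. All tested genes then had 1223 higher and 414 lower, or 384 and 85 with the offset. Leaving out FTAZ:PCBM plant 2 or 3, or PTB7-Th:IEICO-4F plant 1 or 4, left 101, 99, 87 and 105 lower long noncoding RNA genes. Over all tested genes the lower calls fell as well, to 1313, 1697, 1498 and 1427 from 2322. The higher long noncoding RNA genes numbered 25 without FTAZ:PCBM plant 2, and 30 and 23 without PTB7-Th:IEICO-4F plant 1 or 4. Over all tested genes the higher calls there were 2433, 2502 and 2414, from 3424. Protein-coding genes had 3315 (15.2%) higher and 2109 (9.70%) lower of 21742, with a median of -0.01. Strands were not separated in the counting, so a noncoding gene that overlaps a coding gene on the other strand cannot be told apart from it.

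Genes of 1 exon had about the background share of higher calls and a smaller share of lower calls. Of 3243 such genes, 433 (13.4%) were higher and 185 (5.70%) lower, beside 14.0% and 9.48% of all tested genes. In the fit with the offset 427 (13.2%) were higher and 83 (2.56%) lower, beside 8.52% and 4.77%. The 21240 genes with more exons had 2991 (14.1%) higher and 2137 (10.1%) lower, and 1660 (7.82%) and 1086 (5.11%) with the offset. Without the libraries with the letter b, 145 genes of 1 exon were higher and 31 lower. Leaving out single plants changed the counts by over 1.5 times in places, with 297 and 98 without FTAZ:PCBM plant 2, 358 and 114 without its plant 3, and 278 and 116 without PTB7-Th:IEICO-4F plant 4. Over all tested genes the calls in these settings were 2433 and 1313, 2809 and 1697, and 2414 and 1427. In the HC experiment the genes of 1 exon leaned the other way, with 60 higher and 202 lower of 3243. All 24483 tested genes leaned lower there as well, by less, with 857 higher (3.50%) and 1156 lower (4.72%). The per-plant slope of log2 CPM on exon number differed between the PC filters by 0.0213 (two-sided exact permutation p = 0.0857). Among the 62 most abundant genes, at over 1000 CPM per kilobase, 10 were higher (16.1%) and 3 lower (4.84%) without the offset. All tested genes had 14.0% and 9.48%, so the higher share was near the background. With the offset 19 of the 62 were higher (30.6%) and 0 lower, beside 8.52% and 4.77% of all tested genes. Without the offset these counts rested on single plants, with 4 higher and 3 lower without FTAZ:PCBM plant 3, 6 and 7 without its plant 4, 8 and 1 without its plant 2, and 5 and 2 without PTB7-Th:IEICO-4F plant 1 or plant 4. They were 3 and 3 without FTAZ:PCBM plants 1 and 4, and 2 and 0 without plants 2 and 3. All tested genes had 3409 higher and 2420 lower without FTAZ:PCBM plant 4, and 2502 and 1498 without PTB7-Th:IEICO-4F plant 1. They had 2909 and 1765 without FTAZ:PCBM plants 1 and 4, and 1223 and 414 without plants 2 and 3.

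**Figure D5:**
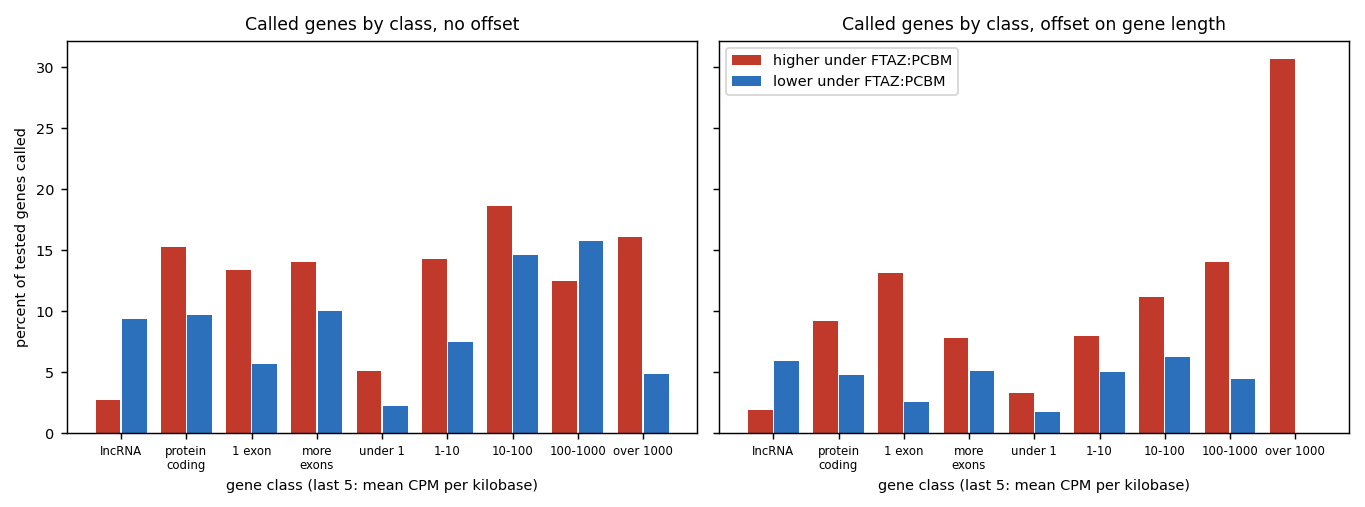
Percent of tested genes called higher (red) and lower (blue) behind FTAZ:PCBM in the PC experiment, by gene class, without (left) and with (right) the offset on gene length. The last 5 classes are by mean CPM per kilobase of exonic length over the 8 plants. Long noncoding RNA genes have the smallest share of higher calls of the 9 classes in both panels, and genes of 1 exon have a smaller share of lower calls than genes with more exons in both.

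Few genes carry a name in the reference, and none of these held a call in both fits. LOC111889525, listed with the synonyms TIM and TPI of triosephosphate isomerase, an enzyme of glycolysis and of the Calvin cycle, lies at NW_019681480.1:1112431-1115236 on the plus strand with 9 exons. It had 348, 314, 377 and 402 CPM behind FTAZ:PCBM and 465, 491, 414 and 444 CPM behind PTB7-Th:IEICO-4F. The groups did not overlap, and FTAZ:PCBM was lower by -0.33 ± 0.10 on the log2 scale (SE, edgeR adjusted p = 0.0213). With the offset on length the value was -0.22 (adjusted p = 0.115), its exonic length being 1101 bases, and in HC it was 0.00 (adjusted p = 0.991). LOC111883376, listed with the synonym GS(1) of a glutamine synthetase, which builds glutamine from ammonium, had 451 ± 29.3 CPM behind FTAZ:PCBM and 491 ± 33.8 CPM behind PTB7-Th:IEICO-4F (SD, n = 4 each). The difference was -0.12 ± 0.08 on the log2 scale (SE, edgeR adjusted p = 0.308). The plastid genes that passed the filter were 3 ribosomal RNA genes and the transfer RNA genes trnH and trnK. None was called, with log2 fold changes of -1.30, -0.30 and -0.87 for the ribosomal RNA genes LasaCr001, LasaCr002 and LasaCr007, -0.23 for trnH and 0.07 for trnK (edgeR adjusted p = 0.0509 to 0.81). Since polyadenylated RNA was selected, plastid RNA is measured only as far as it passed that step.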

How the data were processed

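Values are unnormalized read counts per gene, made by the authors with featureCounts 2.0.1 on exons of the Lsat_Salinas_v7 RefSeq annotation, per the file headers. The headers show no option for strand, multi-mapping reads or read pairs, so genes with near-identical copies may be undercounted. HISAT2, FastQC and DESeq2 are named in the submitters' processing notes, with no role or version. Trimming and read layout are not given in the sources used here. All 32 libraries were pooled over 3 lanes, per the labels' protocols. The files list 43717 genes, 31045 with a read. filterByExpr (minimum count 10, minimum total 15) kept 24483. TMM-scaled counts of all 32 samples entered a model with 1 mean per group (edgeR 4.0.16, limma 3.58.1, R 4.3.3), with p-values adjusted over all tested genes. DESeq2 1.42.0 was an alternative. The fits were also run on counts simulated without a length trend, so that run does not show how they handle one. The offset on gene length subtracts, per library, a lowess curve (span 0.5) of centred log2 CPM (prior count 2) on log2 exonic length, and slopes use the same values. Standard errors were worked out from each fold change and its F value. CPM values printed per plant are scaled to 1e+06 by TMM library size. Of the gene identifiers, 37866 matched a RefSeq table of Lsat_Salinas_v11, used for biotypes and synonyms only, which pairs no product names or promoter sequences with them, so lists by product and promoter motifs were not used here. The spread behind p-values is that between plants, as 4 individual plants per group are labelled. Titles spell the PTB7-Th blend in more than 1 way, and the filter entry of the labels was used. Members and lists were chosen with earlier results of these data known. Named genes were called in both fits in the same direction, with non-overlapping CPM ranges and a mean CPM of at least 1, and were ranked by absolute log2 fold change.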

Additional observations from a re-analysis of the deposited data

Results flagged for a closer look

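In the 4 PC FTAZ:PCBM plants, the number of genes with a read was 26273 in plant 3, away from the other 3 by 0.902 of the whole range of the group. LOC111885663 stood at 24 CPM in FTAZ:PCBM plant 2, a gap of 0.987 of the range of that group. LOC111899294 stood at 3.79 CPM in PTB7-Th:IEICO-4F plant 3, a gap of 0.853 of the range. These gaps exceed Dixon's 95% critical value for 4 samples. Of the 46 groups of values examined, 3 did, and chance alone gives about 2.3.

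The filter contrast differed between the experiments for 2813 genes in the edgeR interaction test. Among the named genes the difference, PC minus HC, was 2.00 for LOC111912962 (adjusted p = 0.0312), 2.01 for LOC111897792 (adjusted p = 0.0117) and 2.27 for LOC111899294 (adjusted p = 0.0352).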

How the results depend on the processing

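Directions of the 20 named genes were kept in the alternatives that tested them, up to 22 per gene (12 genes were below the filter at a mean CPM of 5), and 47 of their values lost the call while 381 stayed past the threshold. LOC111886104, LOC111884267, LOC111890999, LOC111912962 and LOC111897792 passed wherever they were tested. The count of genes between the PC filters was within 1.5 times the reported 5746 with DESeq2's size factors, DESeq2's Wald test, other filters and smaller models. It was 3256 with the offset on length, 516 with an absolute log2 fold change of at least 1, 1637 without the libraries with the letter b, 469 without them and with the offset, and 2540 with only them and the offset; these last 2 settings were chosen after seeing the data. The HC count of 2013 became 971 when the compared groups alone were modelled, with the higher share moving from 42.6% to 50.1%, and 143 at a fold change of at least 1. The interaction count of 2813 became 1472 with the offset, 226 at a fold change of at least 1, and 874 without the libraries with the letter b. Leaving out each plant in turn gave 3746 to 5829 genes in PC, 1173 to 1899 in HC and 1420 to 3420 for the interaction, the fewest without FTAZ:PCBM plant 2, HC FTAZ:PCBM plant 4 and HC PTB7-Th:IEICO-4F plant 4. The HC count was 1242 without HC FTAZ:PCBM plant 1 and 1283 without HC PTB7-Th:IEICO-4F plant 3. The interaction count was 1731 and 1826 without PC FTAZ:PCBM plant 1 or 2, 1665 without PC PTB7-Th:IEICO-4F plant 4 and 1838 without HC FTAZ:PCBM plant 2. The length slope difference was 0.120 to 0.164 when each plant was left out (exact permutation p 0.0571, the smallest 3 against 4 plants can give), 0.128 without and 0.149 with only the libraries with the letter b (0.133, again the smallest possible). A replicate block on plant numbers gave 5672 genes in PC, and 3180 with the offset on length, and for the interaction 2735 and 1381. Same-numbered plants deviated together by r of -0.02, 0.08, 0.15 and 0.15 in PC and 0.16, 0.02, 0.33 and 0.01 in HC. Plants with different numbers were not set beside them, so these values cannot tell whether the numbers pair the plants. The main fit used no pairing. Causes were not tested. Depth limits genes near 3 counts per library.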

Other observations

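Called genes had called neighbours a little more often than all genes did. Of the genes higher behind FTAZ:PCBM with a tested gene next on the scaffold, 15.8% had a next gene that was also higher, beside 14.1% over all 20395 neighbouring pairs. For lower genes the shares were 13.1% and 9.68%. With the offset on gene length they were 11.9% beside 8.50% for higher genes, and 7.38% beside 4.62% for lower genes. No test was run on these shares, and neighbouring genes can have like lengths or be near-identical copies.

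Small nucleolar RNA genes, which guide chemical modification of ribosomal RNA, had 3 higher (2.46%) and 1 lower (0.820%) of 122 tested, beside 14.0% and 9.48% of all tested genes. With the offset on gene length 5 (4.10%) were higher and 0 lower, beside 8.52% and 4.77%. These genes are 68 to 218 bases long, so all genes are not a like-for-like background. In the shortest length class 3.49% of genes were higher and 19.1% lower, or 6.42% and 3.93% with the offset. Since polyadenylated RNA was selected, these RNAs are measured only as far as they passed that step.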
